A study of Mus musculus with 6 samples.

Results

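The genes described here encode the machinery that brings newly made proteins into the endoplasmic reticulum (ER) and folds them there. They were taken from the deposited count table by symbol. The rule used no measured value, but it was chosen with earlier results of these data known. It took the signal recognition particle and its receptor, the Sec61 translocon and its partners, signal peptidase and the oligosaccharyltransferase. It also took the chaperones and disulfide isomerases of the ER, and the degradation adaptor Sel1l. This gave 40 protein-coding genes out of 21606 rows, and 37 of the 40 had enough counts to be tested. RNA came from wild-type C57BL/6 mice, an inbred laboratory strain, and from marrow cells with high activity of aldehyde dehydrogenases, enzymes that oxidise aldehydes; cells sorted this way are called ALDHbr and are rich in progenitors. There were 3 libraries from females and 3 from males, the labels name no treatment in either group, and they do not give the age of the mice. The libraries were made by BRB-seq, in which each sample is barcoded at reverse transcription from the poly(A) tail, so that its reads lie near poly(A) tails and levels of different genes were not set against each other. Nothing in the labels ties the replicates to different mice; the p-values therefore speak only of the scatter among these libraries, and that scatter may be technical. Total counts ran from 679724 to 1475224 per library, and the mean female total was 1.65 times the mean male total.

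The signal recognition particle (SRP) binds the signal sequence of a protein as it leaves the ribosome and docks at the SRP receptor on the ER membrane. The chain then passes through the Sec61 channel, signal peptidase removes the signal sequence, and the oligosaccharyltransferase adds sugar trees to it. Inside, lectin chaperones, the chaperones BiP and GRP94 and protein disulfide isomerases fold it, and chains that fail are sent out for degradation. Early myeloid cells of the marrow use this route to fill their granules with proteases and myeloperoxidase, and plasma cells use it to secrete antibody. When unfolded chains build up, the sensors of the unfolded protein response raise many of these genes through promoter elements bound by ATF6 and XBP1.

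None of the 37 tested genes passed the test between male and female cells (quasi-likelihood test of edgeR; p under 0.05 after Benjamini-Hochberg adjustment over all 8460 tested genes). Over the whole table, 0.426% of tested genes passed as higher in males and 0.154% as lower. At an unadjusted p under 0.05, 3 members were higher in males (Srp9, Srp14 and Ssr4) and 1 was lower (Pdia5), which is 8.11% and 2.7% of the members, beside 6.83% and 4.5% of all tested genes. DESeq2 put 3 members at that level and limma-voom 4, and neither passed any after adjustment. DESeq2 gave no adjusted p for many members, among them Srp9, Srp14, Pdia5, Pdia4 and Sec61g, so these could not pass by that tool. All 3 male libraries lay above all 3 female ones for 2 members and below them for 4, or 5.41% and 10.8%, beside 7.57% and 8.03% of all tested genes. These shares are near those of the whole table. The median log2 fold change, male minus female, was -0.018 over the members, with 16 above 0 and 21 below, and -0.0030 over all tested genes.

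The counts were deep enough to bound most of these differences. The 95% interval of the log2 fold change lay wholly between -0.5 and 0.5, a change of up to 1.41-fold, for 28 of the 37 members, and between -1 and 1, or 2-fold, for 36; the exception was Pdia5. The standard error had a median of 0.13 on the log2 scale over the members and 0.20 over all tested genes. Male replicate 1 carried weight in this result: with it left out, 3 members passed, namely Ssr4, Srp9 and Srp14 (edgeR adjusted p = 0.00126, 0.0159 and 0.0221), and the number of genes passing over the whole table went from 49 to 409. No member passed when any of the other 5 libraries was left out.

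**Figure D1:**
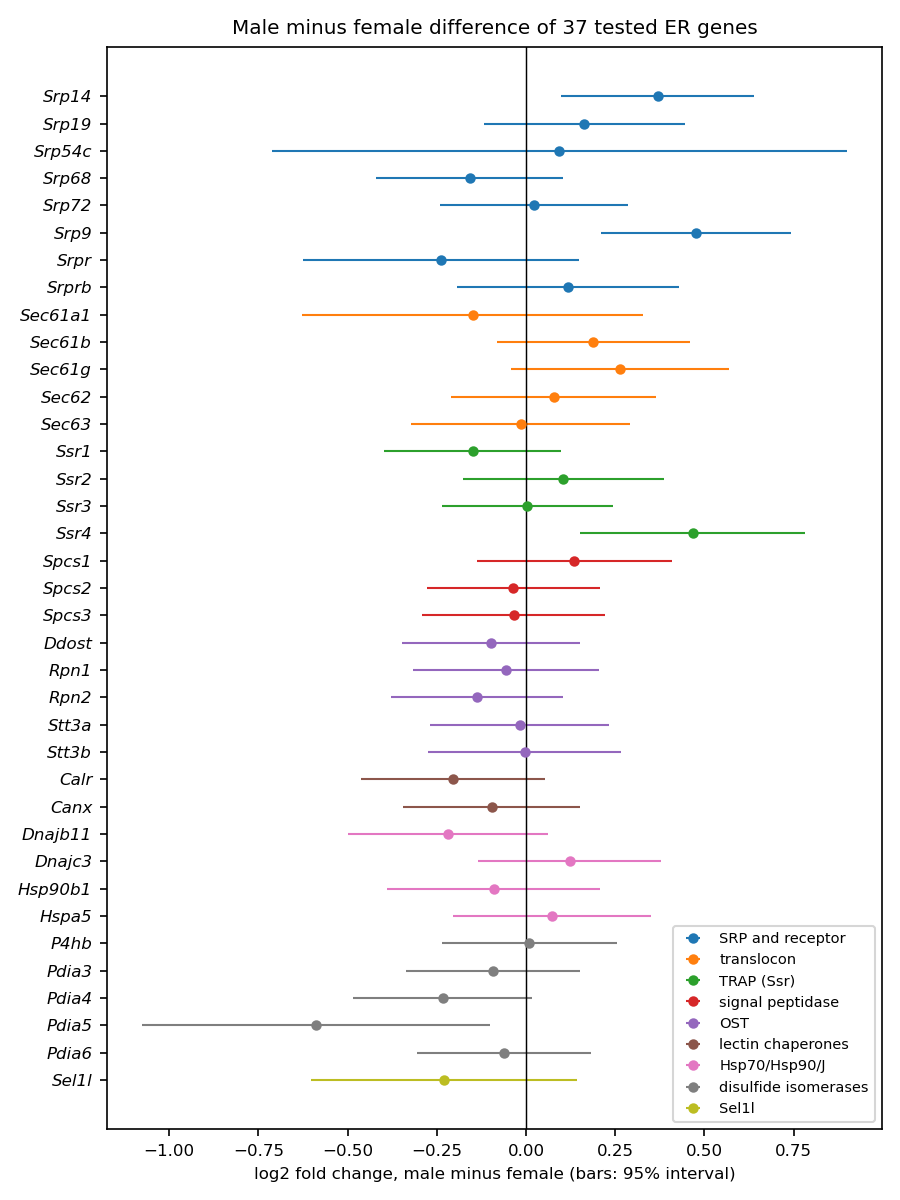
Log2 fold change, male minus female, of the 37 tested ER genes (x axis) with 95% intervals, grouped by role (y axis and colour). The interval holds 0 for 33 of the 37 genes, and the exceptions are Srp9, Srp14, Ssr4 and Pdia5.

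Levels below are CPM, counts per 1e+06 counts of a library after scaling by TMM, a method that fits 1 factor per library so that most genes do not differ. All 40 members together had 13967, 14570 and 15302 CPM in female replicates 1 to 3 and 13935, 14976 and 14322 CPM in the male ones. The sexes overlapped, at 14613 ± 669 (SD, n = 3) in females and 14411 ± 526 in males. Taken as a plain share of all counts, the members held 1.45%, 1.46% and 1.55% in females and 1.43%, 1.32% and 1.35% in males. On that scale every female library lay above every male one, a difference of -0.116 percentage points with an exact two-sided permutation p of 0.1, the smallest that 3 libraries against 3 can give. Without TMM the median of all tested genes also moved, from -0.0030 to -0.092 on the log2 scale, and that of the members to -0.11.

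Summed by role, the signal recognition particle, the translocon channel and the translocon-associated complex had means 1.10, 1.12 and 1.07 times as large in males as in females. The lectin chaperones, the disulfide isomerases and the oligosaccharyltransferase had ratios of 0.884, 0.959 and 0.946, and the heat-shock family chaperones and signal peptidase 1.003 and 1.005. The lectin chaperones were the group of several genes whose summed CPM did not overlap between the sexes, with 2694, 2946 and 2969 in females and 2653, 2564 and 2397 in males; female replicate 1 and male replicate 1 differed by little.

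**Figure D2:**
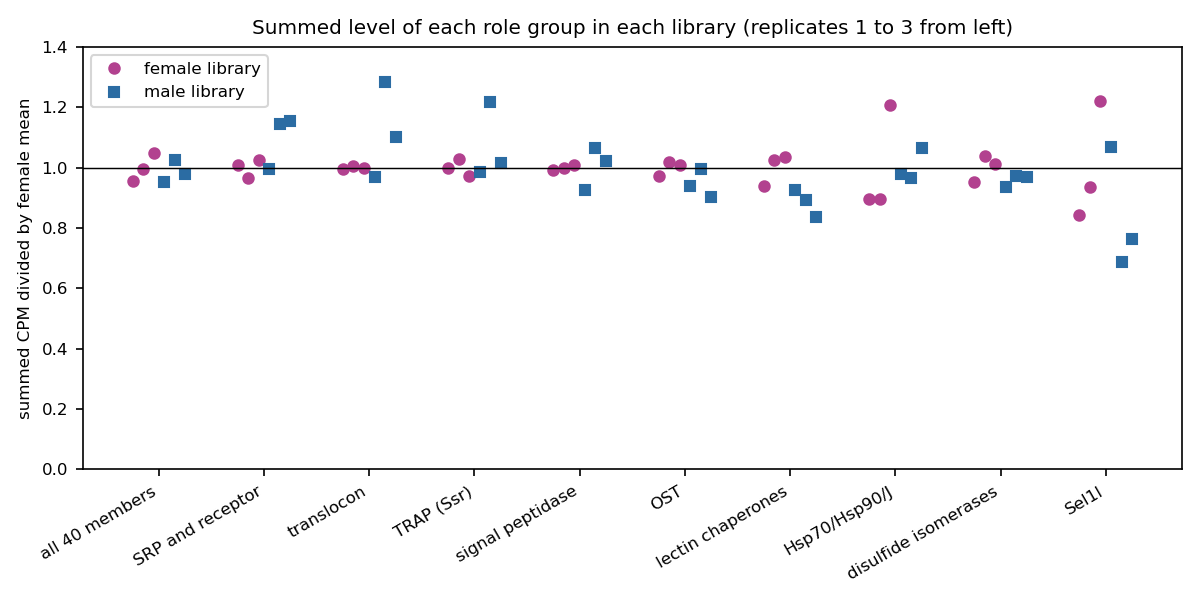
Summed CPM of each role group in each library, divided by the mean of the 3 female libraries (y axis); circles are female and squares male libraries, replicates 1 to 3 from left to right. Male replicate 2 is the highest library for the translocon and the translocon-associated (TRAP) groups, and female replicate 3 for the heat-shock family chaperones.

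Of the 10 genes of the signal recognition particle and its receptor, 8 were tested and 6 of these had fold changes above 0. Srp9 and Srp14 encode the pair of proteins that bind the Alu domain of the particle's RNA, the part that slows translation while the ribosome docks. Srp9 (ENSMUSG00000026511; chromosome 1, 182124737 to 182132407, GRCm38) had 119, 120 and 105 CPM in females and 147, 181 and 155 CPM in males. Every male library was above every female one, and the log2 fold change was 0.48 ± 0.13 (SE; edgeR adjusted p = 0.111). An antisense gene, Gm17968, overlaps an exon of Srp9 and was not analysed here; no source says if reads were assigned by strand, so the levels of such pairs cannot be told apart. Srp14 (ENSMUSG00000009549; chromosome 2, 118475850 to 118479711) had 130, 130 and 124 CPM in females and 140, 166 and 190 CPM in males. Its libraries did not overlap either, with a log2 fold change of 0.37 ± 0.13 (edgeR adjusted p = 0.254). The partners thus had fold changes of the same sign, and neither passed. Without male replicate 3 the fold change of Srp14 was 0.25 and its unadjusted p 0.112.

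The other subunits stayed closer to 0. Srp19, which helps SRP54 bind the RNA, had 162 ± 7.75 CPM (SD, n = 3) in females and 183 ± 37 in males, a log2 fold change of 0.16 ± 0.14. Srp68 and Srp72, which form a dimer on the other end of the RNA, had fold changes of -0.16 ± 0.13 and 0.023 ± 0.13. The subunits of this dimer had fold changes of opposite sign. Srpr, the receptor subunit that meets the particle, had 56.8 ± 11.6 and 47.8 ± 2.85 CPM (-0.24 ± 0.19), and Srprb, the subunit that anchors it in the membrane, 66.6 ± 3.94 and 72.6 ± 4.93 CPM (0.12 ± 0.15). Exons of Srpr overlap those of Tirap and Fam118b on the opposite strand, which had 89 and 141 counts over all libraries. SRP54, the subunit that binds the signal sequence, is encoded by 3 neighbouring copies on mouse chromosome 12 whose reads may be shared or dropped. Srp54c had 11, 25 and 10 counts in females and 14, 4 and 10 in males (fold change 0.094 ± 0.39), while Srp54a and Srp54b had at most 2 counts in any library and were not tested. Counts of this subunit therefore say little.

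Of the 6 genes of the channel and its partners, 5 were tested. Sec61a1 encodes the pore; it had 36.2, 35.9 and 28.5 CPM in females and 23.3, 39.9 and 30.1 in males, with overlapping groups and a log2 fold change of -0.15 ± 0.23. Sec61b and Sec61g encode the small subunits of the channel. Sec61g had 108, 110 and 107 CPM in females and 99.0, 140 and 154 CPM in males, a fold change of 0.26 ± 0.15 with the smallest p of the group (unadjusted p = 0.0870, edgeR adjusted p = 0.522). Without male replicate 1 it was 0.44 (edgeR adjusted p = 0.0558), and without male replicate 3 it was 0.11. Sec61b had 552, 579 and 552 CPM in females and 533, 762 and 629 in males, a fold change of 0.19 ± 0.13. For both small subunits male replicate 1 lay below all female libraries while male replicates 2 and 3 lay above them. Sec62 and Sec63, which serve chains that enter after translation and recruit BiP, had fold changes of 0.078 ± 0.14 and -0.015 ± 0.15. Sec61a2, a second gene for the pore, had 17 counts in all and was not tested.

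The translocon-associated protein complex, TRAP, assists chains whose signal sequences start transport poorly, and its subunits alpha, beta, gamma and delta are encoded by Ssr1 to Ssr4. Ssr4 (ENSMUSG00000002014; chromosome X, 73787028 to 73790830) had 450, 496 and 470 CPM in females and 482, 858 and 629 CPM in males. Male replicate 1 fell within the female range, and male replicate 2 was far above the other male libraries. The log2 fold change was 0.47 ± 0.15 (edgeR adjusted p = 0.222), and without male replicate 2 it was 0.23 (adjusted p = 0.680). Fold changes of the other subunits were smaller in size. Ssr1 had 750, 748 and 702 CPM in females and 724, 652 and 607 in males (-0.15 ± 0.12). Ssr3 had 384 ± 4.37 and 386 ± 12.9 CPM (0.0040 ± 0.12). Ssr2 had 307 ± 19.6 and 333 ± 68.5 CPM (0.11 ± 0.14), again with its highest value, 407 CPM, in male replicate 2. Differences among the 4 subunits were not tested.

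The groups overlapped for all 3 signal peptidase subunits. Spcs1, Spcs2 and Spcs3 encode the subunits that sit beside the catalytic Sec11 proteins. Spcs2 had 387, 402 and 382 CPM in females and 384, 404 and 357 CPM in males, a log2 fold change of -0.035 ± 0.12. Spcs3 had 287 ± 20.4 CPM in females and 281 ± 26.3 in males (-0.035 ± 0.12). Spcs1, with the smallest p of the 3, had 194, 184 and 178 CPM in females and 163, 231 and 221 in males (0.14 ± 0.13; edgeR adjusted p = 0.773); its fold change was 0.28 without male replicate 1, 0.048 without male replicate 2 and 0.071 without male replicate 3. Its exons overlap those of Glt8d1 on the other strand, which had 150 counts.

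All 5 genes of the oligosaccharyltransferase had fold changes below 0, between -0.14 and -0.0037. Rpn2, which encodes ribophorin II, had 534, 574 and 600 CPM in females and 531, 514 and 508 CPM in males. Its groups did not overlap, although female replicate 1 and male replicate 1 were nearly equal, and the fold change was -0.14 ± 0.12 (edgeR adjusted p = 0.719). Ddost and Rpn1, other non-catalytic subunits, had -0.097 ± 0.12 and -0.056 ± 0.13. Stt3a and Stt3b encode the alternative catalytic subunits, which glycosylate chains during and after their passage. Stt3a had 201 ± 12.5 CPM in females and 198 ± 18.0 in males, and Stt3b 172 ± 9.28 and 172 ± 28.5.

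The folding enzymes include genes whose promoters carry the ER stress response element (ERSE), the site through which ATF6 and XBP1 raise chaperone genes. It was searched for as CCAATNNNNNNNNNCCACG, on both strands, in windows from 250 bases before to 50 after the start site given by RefSeq (GRCm38.p6), which were at hand for 35 of the 40 members. The exact element was found in 6 of these 35 genes (17.1%) and in 0.119% of all 32851 promoter windows. Those 6 genes were Hspa5, Hsp90b1, Dnajc3, Calr, Canx and Pdia6, all of them folding genes; Hsp90b1 held 2 copies that do not overlap. Apart from a related element given below, no other motif was searched for. The stretches around the elements, all upstream of the RefSeq start sites, are shown because each holds the exact element. They run 5' to 3' along each gene, with both arms of the element in capitals; that of Hspa5 is shorter because it lies in a GENCODE exon; in Calr and in the nearer copy of Hsp90b1 the element lies in the opposite orientation, so it reads CGTGG first and ATTGG last.
Hspa5: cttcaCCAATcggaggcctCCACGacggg
Hsp90b1: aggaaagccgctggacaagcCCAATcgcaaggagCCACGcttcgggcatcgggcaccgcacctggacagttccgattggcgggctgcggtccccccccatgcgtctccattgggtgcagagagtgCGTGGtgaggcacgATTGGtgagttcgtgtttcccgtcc
Dnajc3: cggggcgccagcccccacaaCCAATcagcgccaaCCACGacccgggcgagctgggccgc
Calr: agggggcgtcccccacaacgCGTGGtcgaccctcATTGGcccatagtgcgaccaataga
Canx: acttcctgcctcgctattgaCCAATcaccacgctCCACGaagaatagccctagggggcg
Pdia6: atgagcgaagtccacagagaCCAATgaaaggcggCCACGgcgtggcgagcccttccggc

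These windows lie at chr2:34772020-34772048 (plus strand) for Hspa5, chr10:86705513-86705676 (minus strand) for Hsp90b1, chr14:118937807-118937865 (plus strand) for Dnajc3, chr8:84847055-84847113 (minus strand) for Calr, chr11:50325780-50325838 (minus strand) for Canx and chr12:17266471-17266529 (plus strand) for Pdia6. The element of Hspa5 is the nearest to its start site, from 65 to 47 bases before it, and the farther copy of Hsp90b1 runs from 212 to 194 bases before its start. The related element ERSE-II, ATTGGNCCACG, was found in 0.0365% of all windows and in 1 member, Dnajb11, just after the start site. The 6 genes with an ERSE had log2 fold changes between -0.20 and 0.12, with a median of -0.076, 2 above 0 and 4 below; the 26 tested members with a window but no exact ERSE had a median of -0.0093. None of the 6 passed the test between the sexes or had an unadjusted p under 0.05.

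**Figure D3:**
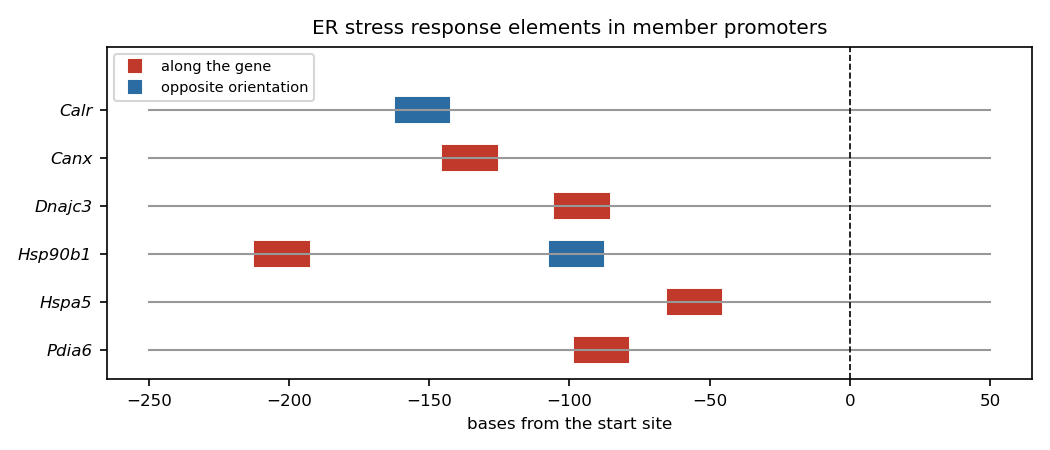
Position of each exact ER stress response element, in bases from the start site (x axis; dashed line at 0), in the 6 member genes that hold it (y axis); red elements run along the gene and blue ones in the opposite orientation. The 7 elements lie between 212 and 47 bases before the start sites.

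Hspa5 encodes BiP, the main Hsp70 chaperone of the ER and the gene most used as a readout of the unfolded protein response. It had 1245, 1222 and 1648 CPM in females and 1436, 1374 and 1519 in males. Female replicate 3 was above all male libraries and the other 2 female libraries were below them, so the spread within females was larger than the difference between the sexes (log2 fold change 0.074 ± 0.13; 95% interval -0.20 to 0.35). Hsp90b1 encodes GRP94, the Hsp90 chaperone of the ER, and had 862, 846 and 1255 CPM in females and 851, 915 and 1016 CPM in males (-0.091 ± 0.14). It was again highest in female replicate 3, and without that library its fold change was 0.12. An exon of Hsp90b1 overlaps 1810014B01Rik on the opposite strand, which had 143 counts, few beside the 6074 counts of Hsp90b1.

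Dnajb11 and Dnajc3 encode J proteins that drive the Hsp70 cycle of BiP. Dnajb11, with the smallest p of the heat-shock family group, had 114, 138 and 115 CPM in females and 104, 111 and 102 CPM in males. All male libraries lay below all female ones, with a log2 fold change of -0.22 ± 0.14 (edgeR adjusted p = 0.577), or -0.11 without female replicate 2. Dnajc3 had 155, 168 and 175 CPM in females and 198, 156 and 184 in males (0.12 ± 0.12). The J proteins thus had fold changes of opposite sign.

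Calr and Canx encode calreticulin and calnexin, the lectin chaperones that hold glycoproteins by their trimmed sugars. Calr had 2015, 2275 and 2263 CPM in females and 1966, 1907 and 1817 CPM in males. The groups did not overlap, with female replicate 1 closest to the males, and the log2 fold change was -0.20 ± 0.12 (95% interval -0.46 to 0.053; edgeR adjusted p = 0.568). Canx had 679, 671 and 706 CPM in females and 687, 657 and 580 in males (-0.096 ± 0.12), and its groups overlapped.

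Protein disulfide isomerases make and rearrange the disulfide bonds of secreted proteins, and 4 of the 5 had fold changes below 0. Pdia5 (ENSMUSG00000022844; chromosome 16, 35397312 to 35490873) had the largest fold change of all members in either direction, -0.59 ± 0.24 (95% interval -1.08 to -0.10; edgeR adjusted p = 0.320). It rested on few counts, 49, 57 and 56 in females and 21, 24 and 16 in males. In CPM these were 39.5, 38.6 and 43.1 in females and 24.5, 39.9 and 19.3 in males, so that male replicate 2 lay among the females. The fold change was -0.88 without male replicate 2 and -0.38 without male replicate 3. Pdia4 had 165, 186 and 187 CPM in females and 161, 153 and 145 in males, with no overlap and a fold change of -0.23 ± 0.12 (unadjusted p = 0.0671, edgeR adjusted p = 0.483). P4hb, the founding member of the family, had 954 ± 44.3 CPM in females and 961 ± 22.7 in males (0.0096 ± 0.12). Pdia3, the partner of calnexin and calreticulin, and Pdia6 had -0.092 ± 0.12 and -0.062 ± 0.12. Sel1l, the adaptor that links folding failures to the degradation ligase, had 65.2, 72.5 and 94.7 CPM in females and 82.7, 53.2 and 59.0 in males (-0.23 ± 0.18; edgeR adjusted p = 0.693), with overlapping groups. Its fold change was -0.45 without male replicate 1 (unadjusted p = 0.0283), -0.12 without male replicate 2, -0.15 without male replicate 3 and -0.064 without female replicate 3.

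**Figure D4:**
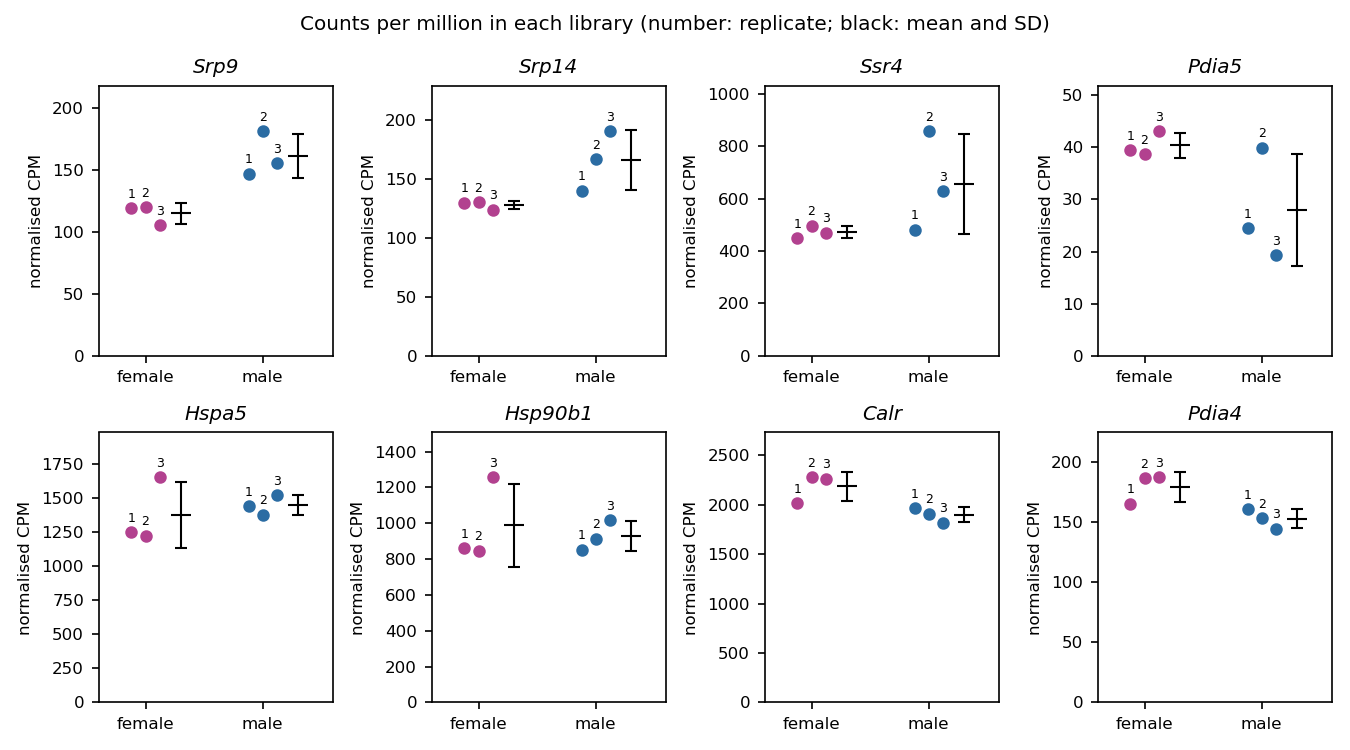
Normalised CPM (y axis, from 0) of 8 ER genes in each library, with the replicate number above each point and the mean and SD of each sex in black. Srp9 and Srp14 are higher in all male libraries, male replicate 2 stands apart for Ssr4, and female replicate 3 is the highest library for Hspa5 and Hsp90b1.

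Male replicate 2 had the highest CPM for 13 of the 37 members (35.1%, beside 26.1% of all tested genes), and female replicate 3 for 11 (29.7%, beside 16.6%). Male replicate 3 had the lowest CPM for 12 members (32.4%, beside 17.5%), male replicate 1 for 10 (27%, beside 15.5%) and male replicate 2 for 5 (13.5%, beside 26.3%). The female libraries had the lowest CPM for 4, 4 and 2 members (10.8%, 10.8% and 5.41%, beside 13.2%, 12.1% and 15.4%). Male replicate 2 was the library with the fewest counts.

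All 6 tested members whose spliced transcript in GENCODE M21 is at most 1000 bases long (Sec61b, Ssr2, Sec61g, Srp14, Ssr4 and Srp19) had fold changes above 0, with a median of 0.23 on the log2 scale. The same held over the whole table, where 80.4% of 567 protein-coding genes of that length were above 0, with a median of 0.19. Of the members from 1000 to 2000 bases, 2 of 5 were above 0 (median -0.035), beside 63.4% of all genes of that length (median 0.075). These 2 were Srp9 and Spcs1, at 0.48 and 0.14, both above the median of that length. Of those from 2000 to 4000 bases, 7 of 20 were above 0 (median -0.076), beside 46.5% of all genes of that length (median -0.020). Of those over 4000 bases 1 of 6 was, beside 33.2%. Their median was nonetheless the higher one, at -0.016 beside -0.11 for all genes of that length. Spearman's rho between length and fold change was -0.26 over the 37 members and -0.33 over 8140 tested protein-coding genes; genes share their libraries and are not independent, so no p is given. Without male replicate 2 these were -0.089 and -0.19, and without female replicate 3 they were -0.16 and -0.27. Transcripts of ribosomal proteins, which are short, took 13.2%, 13.7% and 12.6% of counts in females and 13.5%, 17.7% and 15.9% in males, highest in male replicates 2 and 3, as for Sec61b, Sec61g, Srp14 and Ssr4. The part of transcript length or of single libraries in the values of Srp14 and Ssr4 was not tested.

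**Figure D5:**
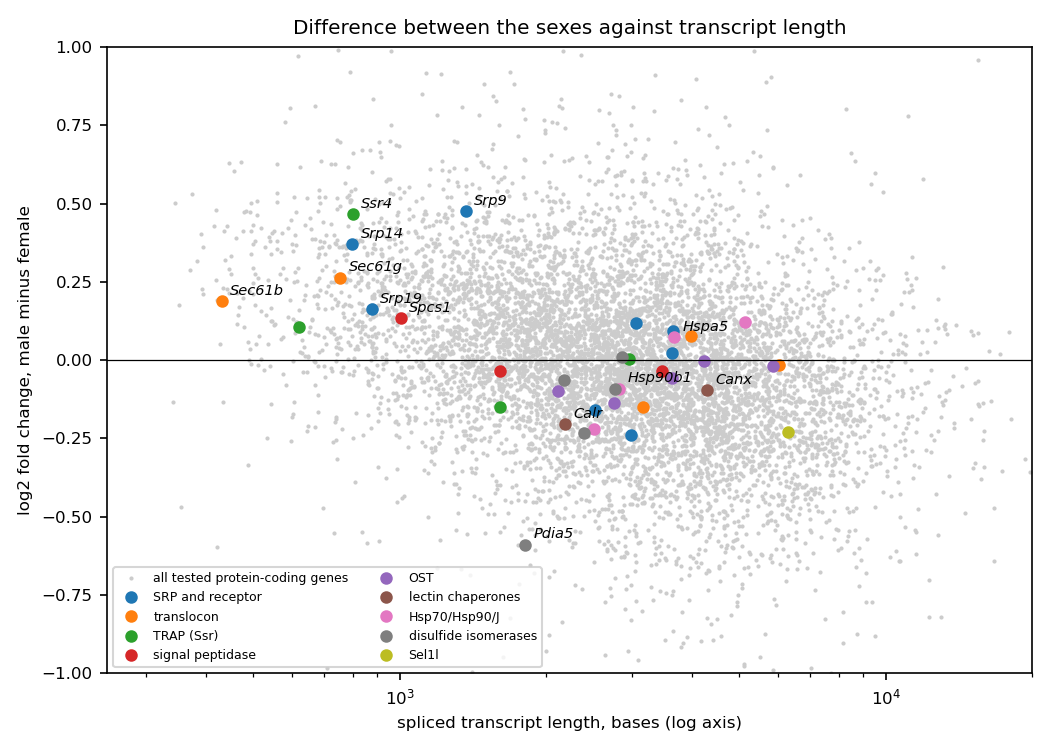
Log2 fold change, male minus female (y axis, from -1 to 1), against the spliced length of the transcript with the longest coding sequence (x axis, log scale), for all tested protein-coding genes (grey, those outside the axis range not shown) and the 37 tested ER genes (coloured by role). The 6 ER genes of at most 1000 bases all lie above 0, as do 80.4% of all genes of that length.

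Of 118 tested genes in 6 lists of other steps of the secretory route, none passed (edgeR, adjusted p under 0.05). At an unadjusted p under 0.05 there were 5 higher in males and 4 lower, beside 6.83% and 4.5% of all tested genes. Their median log2 fold change was 0.0030, with 60 above 0 and 58 below. Among 14 tested sensors and regulators of the unfolded protein response, Atf4, the transcription factor whose translation rises when eIF2alpha is phosphorylated, had 245 ± 21.5 CPM in females and 313 ± 12.8 in males (0.36 ± 0.12; edgeR adjusted p = 0.228). Ddit3, which encodes CHOP, had 11.1 ± 2.46 and 15.6 ± 0.669 CPM (0.51 ± 0.32, edgeR adjusted p = 0.577). It rested on few counts, 17, 13 and 14 in females and 14, 9 and 13 in males. In CPM, male libraries lay above female ones for both Atf4 and Ddit3, and neither passed. Xbp1, whose mRNA is spliced by the sensor IRE1, had 221 ± 9.04 and 224 ± 3.99 CPM, a fold change of 0.016 ± 0.12.

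Of 30 other tested chaperones, oxidoreductases and cofactors, Selenof and Txndc5 had the smallest p, with fold changes of 0.40 ± 0.14 and -0.32 ± 0.12 (edgeR adjusted p = 0.263 and 0.278). Txndc5, a disulfide isomerase of secretory cells, had 193 ± 12 CPM in females and 154 ± 8.22 in males, with no overlap. Of 24 tested genes of ER-associated degradation, Nploc4 and Herpud1 had -0.36 ± 0.17 and 0.27 ± 0.13. A further list of 16 tested genes was set beside the peptidase, translocon and oligosaccharyltransferase. Not all of them, Tmem208 among these, encode subunits of those complexes. Tmem208 and Ganab had 0.36 ± 0.16 and -0.24 ± 0.12. Ganab, the catalytic subunit of glucosidase II, had 214 ± 1.73 CPM in females and 181 ± 2.57 in males. Of 14 genes of tail-anchored and membrane protein insertion, Emc8 and Emc2 had 0.27 ± 0.16 and 0.27 ± 0.17. Of 20 genes of the COPII coat and ER exit, Sar1b, the GTPase that starts the coat, and Lman1, a cargo receptor, had 0.47 ± 0.14 and -0.29 ± 0.14 (edgeR adjusted p = 0.195 and 0.413).

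Transcripts of cells that secrete were compared beside these values, since in bulk samples fewer cells of a type and less RNA per cell cannot be told apart. The early granule genes Mpo and Elane, which mark myeloid progenitors, had 7639 ± 224 and 2463 ± 225 CPM in females and 6332 ± 284 and 2088 ± 80.2 in males, with fold changes of -0.27 ± 0.13 and -0.24 ± 0.13 that did not pass. Other abundant granule genes of that list did not share these values: Ctsg had 1613 ± 72.8 CPM in females and 1824 ± 317 in males (0.18 ± 0.14), and Prtn3 had 2966 ± 66.8 and 2853 ± 272 (-0.057 ± 0.13). The progenitor marker Cd34 had 336 ± 39.1 CPM in females and 366 ± 44.5 in males. Of 11 tested plasma cell markers, 3 fell in males (Ighg1, Igha and Pou2af1, by 1.19, 0.97 and 1.96 on the log2 scale; edgeR adjusted p = 4.38e-04, 6.26e-04 and 0.0193), and 10 of the 11 fold changes were below 0. Their CPM, summed over the 15 listed genes, was 12016 to 14031 in females and 9609 to 11199 in males. Igkc, Sdc1 and Fkbp11 had fold changes of -0.38 ± 0.14, -0.44 ± 0.26 and -0.55 ± 0.24, Jchain, Mzb1, Ighm and Tnfrsf13b -0.091 ± 0.13, -0.15 ± 0.31, -0.20 ± 0.14 and -0.13 ± 0.17, while Xbp1, also in the list of regulators, was near 0. The defining regulators Prdm1 and Irf4 had at most 3 and 6 counts in a library, and Tnfrsf17 and Slamf7 at most 5 and 4. The part of plasma cell RNA in the values of Calr, Pdia4, Pdia5 and Txndc5 was not tested.

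Markers of other lineages moved as well. The 2 tested erythroid markers, Car1 and Car2, rose in males, as did 1 of 1 tested megakaryocyte marker (Pf4) and 1 of 4 tested mast cell and basophil markers (Cpa3), while 1 of 2 tested mature B cell markers (Ms4a1) fell (edgeR, adjusted p under 0.05). Of the tested early neutrophil, dendritic, macrophage, T and natural killer, stem and progenitor, and stromal markers, numbering 5, 3, 1, 1, 4 and 4, none passed, and 0, 1, 0, 1, 1 and 3 had an unadjusted p under 0.05 (edgeR). Their part in the values of the ER genes was not tested.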

How the data were processed

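Counts per gene were analysed for 3 female and 3 male libraries, grouped by the sample titles. Per the labels' protocols, libraries were made by BRB-seq with molecular identifiers. The submitters' processing notes list HISAT2 2.2.1, Trim Galore 0.6.7, featureCounts 2.0.1, UMI-tools and DESeq2, and the builds GRCh38 and GRCm38, without saying what each did. The authors deposited raw counts, whole numbers with no normalisation; no source used here states if identifiers were collapsed or strand was used, which leaves room for PCR copies and for reads shared by overlapping genes.

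Genes were kept by filterByExpr (minimum count 10, minimum total 15) in edgeR 4.0.16 under R 4.3.3, which left 8460 of 21606. Male minus female was tested with TMM scaling and edgeR's quasi-likelihood F test, no covariate, and Benjamini-Hochberg adjustment over all tested genes. Standard errors were computed as the absolute log2 fold change over the square root of F, and 95% intervals use the fitted degrees of freedom. The common biological coefficient of variation was 0.102. Alternatives were other scalings and filters, DESeq2 1.42.0, limma-voom (limma 3.58.1), the replicate number as a block, and each library left out. Library totals from 679724 to 1475224 counts set the precision, and intervals cover no difference between animals that the replicates do not show.

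The steps were tested on simulated data. The pass mark there concerned only changes larger than any seen in the members, so it does not speak of small differences. The deposited libraries of a sex differed by more than counting error (chi-square per degree of freedom 2 to 4.14). Technical scatter can do the same, so this cannot show that they came from different mice. Each library was counted as 1 sample. All 40 member identifiers were found in GENCODE M21 (GRCm38), used for coordinates and transcript lengths; promoters are RefSeq's. Members, gene lists and named genes were chosen with earlier results of these data known. The naming rule gives values in every library for members at an unadjusted p under 0.05 and for the member with the smallest p of each role, and from each pathway list the 2 genes with the smallest p. Other library values, Xbp1, the grouping by length and the promoter search were chosen after the values were seen.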

Additional observations from a re-analysis of the deposited data

How the results depend on the processing

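That no member passed held under all 8 other scalings, filters, tools and designs, though DESeq2 gave many members no adjusted p. It also held with 5 of the 6 libraries left out in turn. Over single libraries left out the number passing ran from 0 to 3 (3 without male replicate 1). The number at an unadjusted p under 0.05 ran from 2 (without male replicate 3) to 10 (without male replicate 1). The genes called over the whole table went from 49 to 116 with no filter, 18 by DESeq2 and 78 with the replicate block, and from 23 (without male replicate 3) to 409 (without male replicate 1); without female replicate 2 they were 31. The 29 higher and 23 lower genes under library-size scaling stand beside 36 and 13 with TMM. The median fold change of the members was -0.11 scaled by library size only, where that of all genes was -0.092, and ran from -0.056 (without male replicate 2) to 0.013 (without female replicate 3). The cause of these shifts was not tested.

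Same-numbered female and male libraries had correlations of 0.0297, 0.0343 and 0.048 between their deviations from the group means. All were under 0.1, yet each library correlated best with its own number. Pairs with unlike numbers had correlations from -0.0327 to -0.000634. Deviations from a group mean cancel out over the libraries of a sex, so positive correlations in some pairs bring negative ones in others. The values of unlike pairs are therefore no separate evidence. Whether same-numbered samples share more than a number was not tested. The replicate block changed no member's call.

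Among 296 values of single members under other settings, 12 changed sign, all from fold changes of at most 0.078 in size: with upper-quartile scaling, Ssr3 (-0.0141) and P4hb (-0.00882); scaled by library size only, Ssr3 (-0.0900), Sec62 (-0.0149), Hspa5 (-0.0196), P4hb (-0.0862) and Srp72 (-0.0732); with no filter, Ssr3 (-0.0274), P4hb (-0.0225) and Srp72 (-0.00837); with a filter of 10 counts in every library of a sex, Stt3b (0.00336); by DESeq2, Stt3b (0.00195). With single libraries left out, 14 members changed sign at least once, from fold changes of at most 0.15 in size, with these lowest and highest values: Ssr3 -0.0139 to 0.0315, Stt3b -0.0826 to 0.13, P4hb -0.0252 to 0.0488, Srp54c -0.22 to 0.56, Sec62 -0.00371 to 0.18, Srp72 -0.0918 to 0.10, Hsp90b1 -0.18 to 0.12, Sec63 -0.0891 to 0.0905, Spcs3 -0.10 to 0.0391, Stt3a -0.0945 to 0.0348, Rpn1 -0.16 to 0.0570, Sec61a1 -0.33 to 0.0319, Ssr2 -0.0563 to 0.23 and Spcs2 -0.0758 to 0.0123. The signs of these members are therefore not fixed by the data. Depth limits Srp54c (74 counts), Sec61a1 (204) and Pdia5 (223) most among the tested members, and Srp54a, Srp54b and Sec61a2 could not be tested.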
